A study of Mus musculus with 11 samples.

Results

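The 38 genes described here are the Wnt ligands, the Frizzled receptors and 2 families of secreted Wnt antagonists of the mouse, followed as stretches of open chromatin in sorted esophageal cells. They were taken by symbol from 21631 protein-coding genes: 19 Wnt genes, 10 Fzd genes, 5 genes of the secreted Frizzled-related proteins (Sfrp1, Sfrp2, Sfrp4, Sfrp5 and Frzb) and 4 Dkk genes. A region is a stretch of genome covered by intervals called open in any library, and 295 of 124941 regions had their midpoint nearest to one of these genes and within 100 kb of its body. These regions form the locus of that gene, and the measure throughout is how many regions of a locus, or which ones, were open (occupied) in a library.

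ATAC-seq, in which a transposase cuts and tags accessible DNA, was made on 11 libraries of 4 groups. SmoM2-Sox9cKO cells (3 libraries) carried Krt5-SmoM2-Sox9fl/fl, with no strain named, and were sorted for high EpCAM, an epithelial adhesion protein. SmoM2 cells (3 libraries) carried Krt5-SmoM2 in CD1 mice and went through the same high EpCAM gate. In both, a mutant Smoothened that signals without Hedgehog ligand is named together with Krt5, a keratin gene active in the basal layer; the Cre that drives it is not described. Embryo cells (2 libraries) came from Krt8YFP esophagus at embryonic day 13, sorted on YFP, and WT cells (3 libraries) from wild-type CD1 mice, sorted for low EpCAM. Genotype and EpCAM gate therefore cannot be told apart against WT. The SmoM2-Sox9cKO and Embryo samples are numbered in a separate run from the SmoM2 and WT samples. Any difference between these sample sets cannot be told apart from the groups compared across them. Age, sex and the number of animals are not labelled, and nothing says that replicates are separate animals, so each p-value covers no more than the scatter among these libraries, which may be technical.

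Wnt proteins are secreted, lipid-modified ligands that bind Frizzled receptors on the cell surface. With the co-receptors Lrp5 and Lrp6 they stabilise beta-catenin, which acts with TCF/LEF factors on target genes, while other Wnt-Frizzled pairs steer cell polarity and movement. Sfrp proteins and Frzb bind Wnt ligands outside the cell, and Dkk1, Dkk2 and Dkk4 bind the co-receptors. In stratified epithelia such as the esophagus, Wnt signals are known for roles in foregut patterning and in the basal progenitor layer.

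Promoter windows of 300 bases, from 250 before to 50 after the annotated start, were found for 26 of the 38 genes in the RefSeq table of GRCm38.p6 (29 windows, since Wnt11 and Wnt5b have several). No window is given for Fzd2, Fzd3, Fzd6, Fzd8, Wnt5a, Wnt7b, Wnt8a, Wnt10a, Sfrp1, Sfrp4, Dkk3 and Dkk4. The 5 windows below are shown because they span the patterns found at the starts of these genes: a receptor start open in every library (Fzd5, chr1:64737701-64738000, minus strand), the start of the receptor whose locus gained regions in SmoM2 (Fzd1, chr5:4758167-4758466, minus strand), a ligand start open in adult but not in Embryo libraries (Wnt7a, chr6:91411304-91411603, minus strand), an antagonist start open in some SmoM2 libraries (Frzb, chr2:80447347-80447646, minus strand) and an antagonist start never open (Dkk1, chr19:30549447-30549746, minus strand). Each is printed 5′ to 3′ on the gene's own strand, with capitals marking CpG dinucleotides.
Fzd5: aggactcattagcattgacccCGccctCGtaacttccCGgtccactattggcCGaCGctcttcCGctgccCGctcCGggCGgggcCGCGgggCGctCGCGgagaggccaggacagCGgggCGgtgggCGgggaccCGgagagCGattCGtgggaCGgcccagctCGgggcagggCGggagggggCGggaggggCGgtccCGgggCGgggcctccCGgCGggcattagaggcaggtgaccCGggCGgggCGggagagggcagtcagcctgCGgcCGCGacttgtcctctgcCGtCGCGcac
Fzd1: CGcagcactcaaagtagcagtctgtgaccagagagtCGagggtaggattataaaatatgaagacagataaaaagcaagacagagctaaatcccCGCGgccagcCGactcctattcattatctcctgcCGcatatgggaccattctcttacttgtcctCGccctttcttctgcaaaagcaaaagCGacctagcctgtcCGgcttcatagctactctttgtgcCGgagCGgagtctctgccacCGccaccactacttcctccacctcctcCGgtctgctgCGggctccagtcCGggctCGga
Wnt7a: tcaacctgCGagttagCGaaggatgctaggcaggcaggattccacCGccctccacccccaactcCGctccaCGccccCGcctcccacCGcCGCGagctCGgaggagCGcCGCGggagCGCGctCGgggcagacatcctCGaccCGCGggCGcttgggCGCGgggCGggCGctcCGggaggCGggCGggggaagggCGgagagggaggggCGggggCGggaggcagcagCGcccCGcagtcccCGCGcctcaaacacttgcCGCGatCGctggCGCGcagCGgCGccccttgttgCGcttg
Frzb: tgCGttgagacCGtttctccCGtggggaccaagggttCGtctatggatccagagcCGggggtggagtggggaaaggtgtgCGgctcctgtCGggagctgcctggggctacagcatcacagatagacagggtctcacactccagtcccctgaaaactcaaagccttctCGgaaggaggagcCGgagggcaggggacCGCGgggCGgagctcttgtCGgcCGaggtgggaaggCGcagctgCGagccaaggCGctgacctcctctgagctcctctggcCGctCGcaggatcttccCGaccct
Dkk1: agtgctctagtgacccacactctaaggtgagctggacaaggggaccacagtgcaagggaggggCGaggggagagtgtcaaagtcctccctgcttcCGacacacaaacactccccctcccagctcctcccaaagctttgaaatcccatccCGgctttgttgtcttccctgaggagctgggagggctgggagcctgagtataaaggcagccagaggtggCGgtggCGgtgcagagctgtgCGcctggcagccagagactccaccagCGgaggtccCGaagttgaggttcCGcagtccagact

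These windows hold 38 CpG in Fzd5, 16 in Fzd1, 42 in Wnt7a, 20 in Frzb and 9 in Dkk1. Over all windows of a family the median was 35 CpG for Fzd (6 windows, 16 to 53) and 28 for Wnt (18 windows, 4 to 58), while the 2 Dkk windows had 9 and 11. CTTTGA, the core of the TCF/LEF motif, was searched on both strands and stood in 5 of the 29 windows (Dkk1, Frzb, Fzd1, Wnt11 and Wnt5b), against 14.4% of 21045 protein-coding windows. In Dkk1 it occurs once on each strand, 117 and 174 bases before the start, and in Frzb once, 95 bases before it. ACAATG, a SOX core, stood in 2 windows (Wnt1 and Wnt16) against 10.5% of all, and GACCACCC, a GLI core, in 0 against 0.746%. None of the 3 motifs contains another, and a match of letters is no evidence of binding.

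Intervals of the adult lists numbered 69116 to 87966, and those of the Embryo lists 24927 and 14281; read depth is unknown. Intervals on 4 Y-linked genes numbered 8, 10 and 0 in SmoM2-Sox9cKO, 9 in each SmoM2 library, 0 and 0 in Embryo, and 5, 0 and 0 in WT, so libraries with and without Y signal are unevenly spread over the groups. At Sox9 the intervals covered 900 to 984 of 5548 bp of the gene body in SmoM2-Sox9cKO, 872 to 912 bp in SmoM2 and 807 to 826 bp in WT; the labels do not say which bases the floxed allele removes, so this checks nothing about the deletion. The 10 markers of basal epithelium summed to 116 to 123 occupied regions in SmoM2-Sox9cKO, 106 to 131 in SmoM2, 17 to 25 in Embryo and 97 to 106 in WT, and Krt5 was at 0 in both Embryo libraries. None of the basal or simple epithelial markers was called in an adult comparison. Among markers of other cell types, the 6 endothelial ones summed to 37 to 40 regions in SmoM2-Sox9cKO and 33 to 40 in SmoM2, against 22 to 26 in WT, and the 10 fibroblast markers to 26 to 30 and 24 to 25, against 19 to 22. The 6 immune markers summed to 12 to 16 and 11 to 16, against 7 to 12, the 6 melanocyte, neural crest and glial markers to 15 to 21 and 19 to 20, against 14 to 19, and the 4 muscle markers to 5 to 9 and 6 to 9, against 9 to 12. In SmoM2 against WT the markers called higher were Cdh5, Emcn, Pecam1, Twist2 and Ptprc and the one lower was Acta2; in SmoM2-Sox9cKO against WT, Cdh5, Emcn, Pecam1, Tek and Twist2 were higher and Twist1 and Acta2 lower. Lum was at 0 in each adult library and Ptprc at 0 in each WT library. The part of such cells in the results against WT was not tested.

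The starts of the Frizzled receptors were open throughout the adult libraries. All 6 Fzd windows were occupied in all 9 adult libraries, and 4 of them (Fzd1, Fzd4, Fzd5 and Fzd7) in both Embryo libraries. Fzd9 was occupied in 1 Embryo library and Fzd10 in 0. By either end of the gene body, an interval had to cover its first or last base, which can be applied to all 10 receptors. By this measure 10 of 10 were open in all 9 adult libraries and 7 of 10 in both Embryo libraries. Of all protein-coding genes, 45.3% and 31.3% were. Each Fzd window held at least 16 CpG. Among all protein-coding windows with at least 15 CpG, 85.4% were occupied in all 9 adult libraries and 65.5% in both Embryo libraries. The part of CpG content was not tested.

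Of the Wnt ligand starts with a window, most were open in adult cells, and none was open in both Embryo libraries. Of the 18 Wnt windows, 12 were occupied in all 9 adult libraries (those of 10 of the 15 Wnt genes with a window), and 0 in both Embryo libraries; 4 were occupied in the longer Embryo list alone, 1 each at Wnt2b, Wnt5b, Wnt9b and Wnt11. Over all protein-coding windows, 52.6% were occupied in all 9 adult libraries and 36.7% in both Embryo libraries. By the first or last base of the gene body, which covers all 19 Wnt genes, 5 (26.3%) were open in all 9 adult libraries, against 45.3% of all genes. In both Embryo libraries 0 were, against 31.3%. This measure is narrower than the windows. Wnt1, Wnt3, Wnt3a, Wnt5b, Wnt9b and Wnt11 each missed it in an adult library, despite a window open in all 9. Among all protein-coding windows open in all 9 adult libraries, 67.8% (of 11075) were open in both Embryo libraries. CpG content moves with this share: 65.5% of windows with at least 15 CpG, 21.2% of those with 5 to 14 and 1.44% of those with fewer were open in both Embryo libraries. Open in all 9 adult libraries were 85.4%, 41.9% and 6.46% of the same classes. The 18 Wnt windows held 4 to 58 CpG (median 28). All had at least 15 CpG except those of Wnt16 (10) and Wnt8b (6) and the Wnt5b windows with 7 and 4. Most thus belong to the class of which 65.5% was open in both Embryo libraries. The part of CpG content was not tested.

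The lists differ in length, and the shortest is an Embryo list. With every list cut to its top 14255 intervals by the authors' p-value, the Embryo lists held 1 and 0 of the 18 Wnt windows, the SmoM2-Sox9cKO lists 2 each, the SmoM2 lists 1 to 3 and the WT lists 1 to 2, so at equal length the groups overlap at the Wnt windows. Over all windows the share occupied at equal length was 42.8% and 37.2% in Embryo, 32.5% to 34.7% in SmoM2-Sox9cKO, 31.5% to 37.3% in SmoM2 and 27.0% to 31.9% in WT. The Fzd windows at equal length numbered 4 and 4 of 6 in Embryo, 4 to 6 in SmoM2-Sox9cKO and in SmoM2, and 3 to 4 in WT. The intervals at Wnt starts ranked lower within their lists than those at Fzd starts: the median rank lay 38.5% to 51.7% of the way down the list for Wnt and 7.90% to 15.7% for Fzd over the 9 adult libraries.

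**Figure D1:**
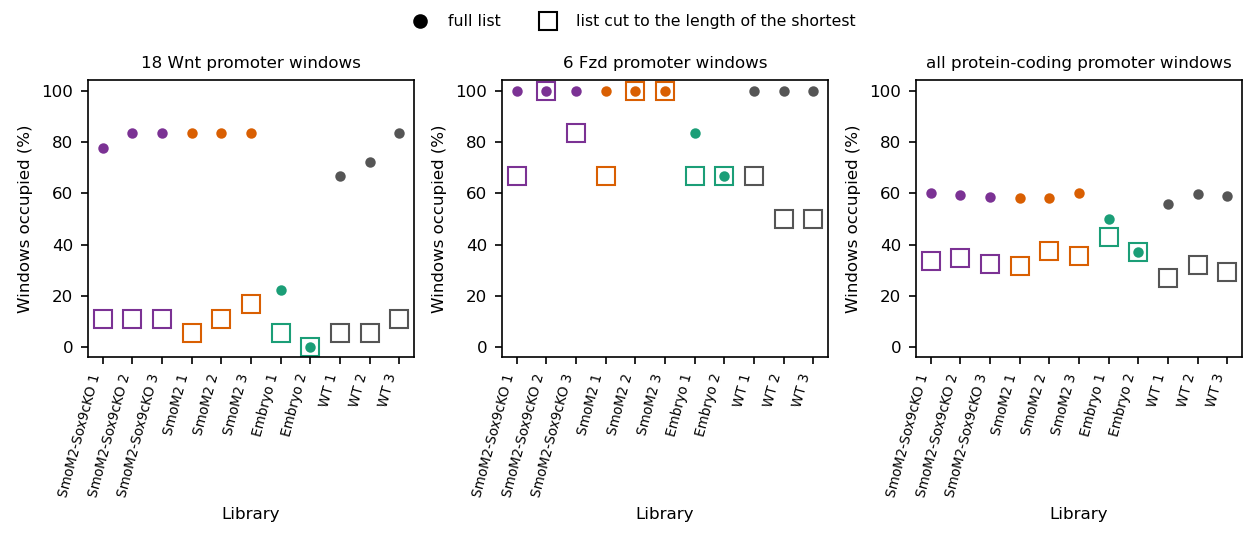
Share of promoter windows (%) occupied in each library, for 18 Wnt windows, 6 Fzd windows and all protein-coding windows. Filled circles are full lists and open squares lists cut to the length of the shortest; Wnt windows drop to at most 3 of 18 in every cut list, while Fzd windows stay at 3 to 6 of 6.

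A few starts varied among the adult groups. The Frzb window was occupied in 3 of 3 SmoM2-Sox9cKO, 1 of 3 SmoM2 and 3 of 3 WT libraries. The Wnt10b window was occupied in 3 of 3 SmoM2-Sox9cKO, 3 of 3 SmoM2 and 1 of 3 WT libraries, and the Wnt4 window in 2 of 3, 2 of 3 and 0 of 3. Windows of Dkk1, Dkk2, Sfrp5 and Wnt8b were open in no library, like the middle of the 3 Wnt5b windows, which has 4 CpG. The whole region at the Frzb start was occupied in 2 of 3 SmoM2 libraries, and that at the Wnt10b start in 2 of 3 WT libraries. These differences thus depend in part on where the window lies. With 3 libraries a group, 1 or 2 libraries decide each of them.

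Over whole loci, 123 of the 295 regions (41.7%) were occupied in all 9 adult libraries, against 37% of all regions near a gene, and 15 (5.08%) in all 11 libraries, against 9.24%. Of those 15, 8 lay at Fzd genes (Fzd1, Fzd2, Fzd3, Fzd5, Fzd6, Fzd7, Fzd8 and Fzd10), 5 at Wnt genes (Wnt3, Wnt5b, Wnt7b, Wnt11 and Wnt16) and 2 at Sfrp1. The Fzd4 start, open in every library, is not among them, because its region was assigned to another gene. All regions of the Fzd4 locus lay 14.7 to 39.2 kb downstream. Loci differed widely in size. Wnt7b, a ligand made in many epithelia, had the most occupied regions: 25, 24 and 23 in SmoM2-Sox9cKO, 23, 22 and 26 in SmoM2, 3 and 1 in Embryo, and 19, 22 and 25 in WT. Sfrp1 had 20, 17 and 18 in SmoM2-Sox9cKO, 16, 15 and 18 in SmoM2, 3 and 4 in Embryo, and 18, 18 and 19 in WT. Fzd10, the receptor with the most regions, had 14, 13 and 13 in SmoM2-Sox9cKO, 12, 13 and 13 in SmoM2, 1 and 1 in Embryo, and 12, 14 and 13 in WT.

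Other loci were sparse. Fzd9 had 1 region in each adult library, at its start, and 1 and 0 in Embryo. Fzd5 had 2 in each adult library and 1 and 1 in Embryo. Among the ligands Wnt2 had the fewest, with 1, 2 and 1 in SmoM2-Sox9cKO, 4, 1 and 2 in SmoM2, 0 and 0 in Embryo, and 1, 2 and 2 in WT. Sfrp4 had 1 region in 1 SmoM2 library and none in the other 10 libraries, and Dkk1 a single region 5.21 kb upstream, occupied in 1 of 3 SmoM2-Sox9cKO, 2 of 3 SmoM2, 0 of 2 Embryo and 3 of 3 WT libraries. These 2 loci fell below the mean of 1 occupied region over the 9 adult libraries that a locus needed to be tested, leaving 36 of 38.

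**Figure D2:**
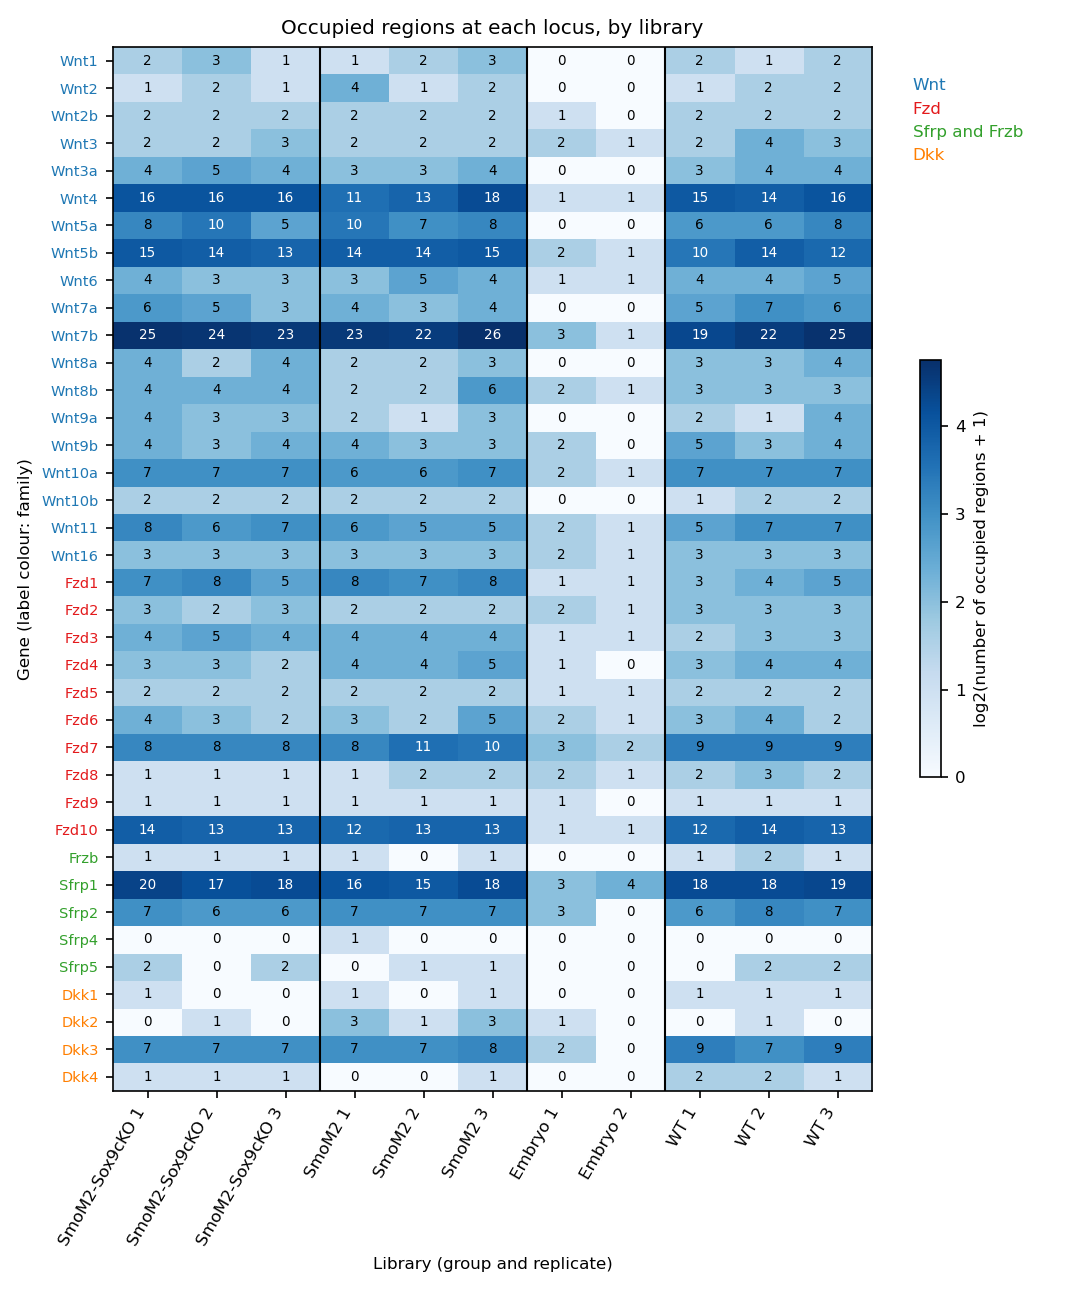
Number of occupied regions at each of the 38 loci (rows, coloured by family) in each of the 11 libraries (columns), with colour on a log2 scale. Wnt7b, Sfrp1 and Wnt4 are the fullest rows; the 2 Embryo columns, from much shorter lists, are low throughout.

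All member regions together numbered 207, 195 and 184 in SmoM2-Sox9cKO, 185, 177 and 212 in SmoM2, 44 and 22 in Embryo, and 175, 197 and 203 in WT. Per 100000 occupied regions of the library this was 259 ± 4.16 in SmoM2-Sox9cKO, 243 ± 5.19 in SmoM2 and 265 ± 6.47 in WT (SD, n = 3 each), and 168 ± 16.0 in Embryo (SD, n = 2). With lists cut to the shortest the order among adult groups changed: 223 ± 14.7 in SmoM2-Sox9cKO, 208 ± 28.3 in SmoM2 and 162 ± 12.2 in WT (SD, n = 3 each). At that length Embryo had 153 ± 5.76 (SD, n = 2).

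SmoM2 cells were first set against WT cells, the comparison the study's title names. The locus of Fzd1 gained open regions, and the loci of Dkk4, Sfrp1, Wnt7a and Fzd2 lost some; the other 31 loci did not pass the test. The test was limma on the log2 number of occupied regions per 100000 of the library, with the 3 adult groups in 1 fit and Benjamini-Hochberg adjustment over 15364 loci. In all, 5 of 36 loci (13.9%) were called, against 11% of all loci tested; 1 was higher (5.2% of all loci) and 4 lower (5.75%). At an unadjusted p under 0.05 there were 13 of 36, against 24.7% of all loci. The median log2 change was -0.15 over the 36 loci and -0.12 over all loci, and scaling by the library totals brings this shift. Without scaling, and with Y-linked intervals as a covariate, no member was called in any adult comparison, and none was called here without WT 1, SmoM2 1 or SmoM2 2. A locus with fewer regions may be open in fewer cells or less open in each, which such data cannot tell apart.

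Fzd1 (gene ID 14362, chr5:4753839-4758216, minus strand), a receptor of the beta-catenin pathway, had 8, 7 and 8 occupied regions in SmoM2, against 3, 4 and 5 in WT. The groups did not overlap, as for 11.2% of all loci in that direction. The log2 change was 0.76 (SE 0.17, limma adjusted p 0.0216), which is 0.88 above the median locus. Its start was open in all libraries; the added regions lay around it, 3.79 kb upstream (3 of 3 SmoM2 and 0 of 3 WT), 5.19 kb upstream (3 of 3 and 1 of 3), and 56.2 kb (3 of 3 and 0 of 3) and 95.6 kb (3 of 3 and 1 of 3) downstream. The adjusted p lay between 0.0548 and 0.0718 without WT 1, WT 2 or any 1 of the SmoM2 libraries.

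Wnt7a (gene ID 22421, chr6:91363981-91411353, minus strand), an epithelial ligand, had 4, 3 and 4 regions in SmoM2, against 5, 7 and 6 in WT. The groups did not overlap (5.58% of all loci in that direction), and the log2 change was -0.76 (SE 0.19, limma adjusted p 0.0341). The start region and 1 region inside the gene stayed open in all adult libraries. The region 30.97 kb downstream was open in 0 of 3 SmoM2 and 3 of 3 WT libraries, and the one 35.4 kb downstream in 0 of 3 and 2 of 3. The call was lost without any 1 WT or SmoM2 library (adjusted p 0.0553 to 0.101) and with a locus of 20 kb (log2 change -0.41, adjusted p 0.174).

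Fzd2 (gene ID 57265, chr11:102604431-102608058), another receptor, had 2 regions in each SmoM2 library, against 3 in each WT library. The log2 change was -0.61 (SE 0.16, limma adjusted p 0.0408), and it rests on a single region 17.2 kb from the gene, open in 0 of 3 SmoM2 and 3 of 3 WT libraries. The fit across all loci also takes its spread from SmoM2-Sox9cKO, which had 3, 2 and 3 regions. The call was lost without any 1 WT or SmoM2 library or without SmoM2-Sox9cKO 1 (adjusted p 0.0555 to 0.112).

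Sfrp1 (gene ID 20377, chr8:23411383-23449632), a secreted antagonist, had 16, 15 and 18 regions in SmoM2, against 18, 18 and 19 in WT. These counts overlap at 18, and only after scaling do the groups separate (log2 change -0.29, SE 0.07, limma adjusted p 0.0290). Relative to the median locus the change was -0.17. The adjusted p was 0.0610 to 0.0861 without WT 1, WT 3 or any 1 SmoM2 library. Single Sfrp1 regions differed both ways. Open in 0 of 3 SmoM2 and 3 of 3 WT libraries were 3 (14.8 kb and 7.51 kb outside the gene and 1 inside it). Open in 3 of 3 SmoM2 and 0 of 3 WT libraries were 2 (62.1 kb and 84.5 kb outside). The authors' folds in WT were 2.67 to 3.66, 3.21 to 5.86 and 2.07 to 2.50, and in SmoM2 2.44 to 3.38 and 3.62 to 5.84. The regions 14.8 kb away, inside the gene and 62.1 kb away ranked low by p-value (median ranks 69735, 70476 and 70653). Whether such weak intervals only crossed the caller's threshold was not tested.

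Dkk4 (gene ID 234130, chr8:22623685-22628018), which blocks the Lrp5 and Lrp6 co-receptors, had 0, 0 and 1 regions in SmoM2, against 2, 2 and 1 in WT. The counts overlap at 1, the locus holds only 2 regions (6.39 kb and 10.5 kb from the gene), and the log2 change of -1.67 (SE 0.37, limma adjusted p 0.0200) depends on the added 0.5. Without SmoM2 1 or SmoM2 2 the adjusted p was 0.0633 and 0.0664, and without WT 1 or WT 2 the locus fell below the filter (a mean of 1 region) and was not tested. Dkk2, a co-receptor binder too, had the opposite sign, with 3, 1 and 3 regions in SmoM2 and 0, 1 and 0 in WT. Its log2 change was 1.75 (SE 0.55, limma adjusted p 0.0760); the adjusted p was 0.0376 without WT 2 and 0.0346 without SmoM2-Sox9cKO 2, and the locus fell below the filter without SmoM2 1 or SmoM2 3. No Dkk2 region was open in 3 of 3 SmoM2 and 0 of 3 WT libraries.

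Further loci with sizeable changes missed the threshold. Frzb had 1, 0 and 1 regions in SmoM2 and 1, 2 and 1 in WT (log2 change -0.90, SE 0.36, limma adjusted p 0.159). Fzd3, a receptor of planar cell polarity, had 4, 4 and 4 in SmoM2 and 2, 3 and 3 in WT (0.40, SE 0.15, limma adjusted p 0.128). Fzd8 had 1, 2 and 2 in SmoM2 and 2, 3 and 2 in WT (-0.53, SE 0.21, limma adjusted p 0.157). Wnt3 had 2, 2 and 2 in SmoM2 and 2, 4 and 3 in WT, and Wnt8a 2, 2 and 3 in SmoM2 and 3, 3 and 4 in WT, each with a log2 change of -0.57. Dkk3, a Dkk family member not known as a co-receptor binder, had 7, 7 and 8 in SmoM2 and 9, 7 and 9 in WT (-0.29, SE 0.13, limma adjusted p 0.211). Sfrp5 had 0, 1 and 1 in SmoM2 and 0, 2 and 2 in WT (-0.61, SE 0.78).

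By family, 1 of 10 Fzd loci rose and 1 fell, 1 of 19 Wnt loci fell, 1 of 4 tested Sfrp and Frzb loci fell, and 1 of 3 tested Dkk loci fell. The median log2 change was -0.24 for Wnt, -0.08 for Fzd, -0.45 for Sfrp and Frzb and -0.29 for Dkk, beside -0.12 for all loci.

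**Figure D3:**
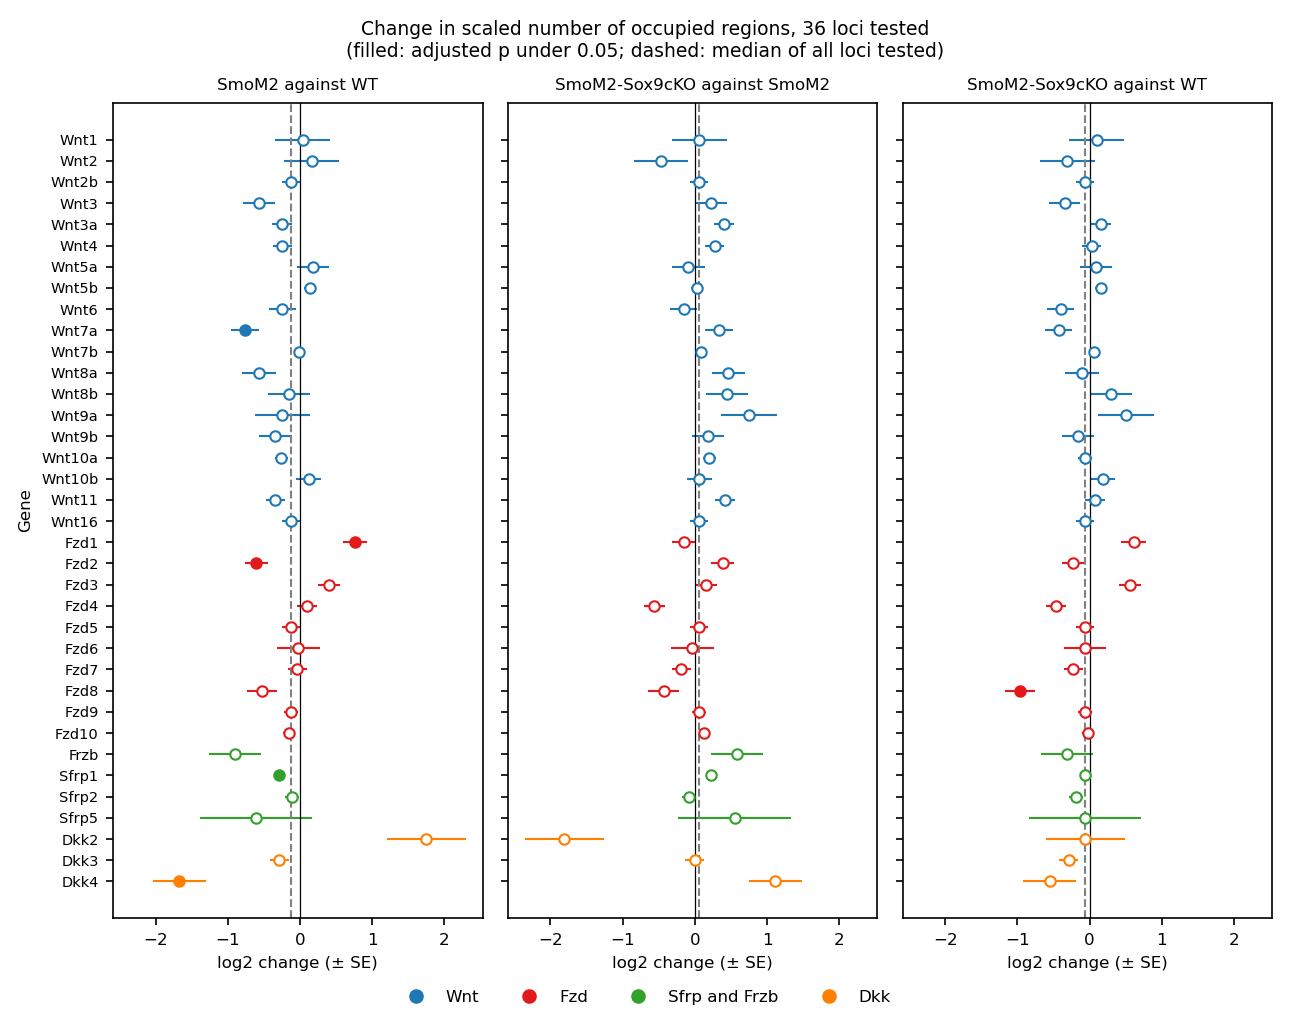
Log2 change (± SE) in the scaled number of occupied regions at the 36 loci tested, in the 3 adult comparisons; filled points passed an adjusted p of 0.05 and the dashed line is the median of all loci. In SmoM2 against WT, Fzd1 is filled on the right and Dkk4, Sfrp1, Wnt7a and Fzd2 on the left; in SmoM2-Sox9cKO against SmoM2 no point is filled.

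SmoM2-Sox9cKO cells were set against SmoM2 cells, which share the transgene and the EpCAM gate. Only for SmoM2 is a strain named (CD1), and the samples of these groups are numbered in separate runs. A difference in strain or between the sample sets thus cannot be told apart from the Sox9 deletion. None of the 36 loci passed limma's test, against 0.853% of all loci (0.423% higher and 0.43% lower); 7 had an unadjusted p under 0.05, against 11.7% of all loci. Without SmoM2 3, 2 loci were called higher. The 2 downward ones were Fzd4, a receptor also used by Norrin, and Dkk2. Fzd4 had 3, 3 and 2 regions in SmoM2-Sox9cKO, against 4, 4 and 5 in SmoM2, with no overlap (3.61% of all loci in that direction), while no member was higher without overlap (1.99% of all). Its log2 change was -0.56 (SE 0.14, limma adjusted p 0.147), and the Fzd4 counts leave out its start, assigned to another gene. Dkk2 had 0, 1 and 0 in SmoM2-Sox9cKO, against 3, 1 and 3 in SmoM2 (-1.81, SE 0.55, limma adjusted p 0.232).

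The 5 upward ones included Sfrp1 and Dkk4, both called lower in SmoM2 against WT; these comparisons share the SmoM2 libraries. Sfrp1 had 20, 17 and 18 regions in SmoM2-Sox9cKO, against 16, 15 and 18 in SmoM2 (log2 change 0.22, SE 0.07, limma adjusted p 0.239). Dkk4 had 1, 1 and 1 in SmoM2-Sox9cKO, against 0, 0 and 1 in SmoM2 (1.12, SE 0.37, limma adjusted p 0.278). Fzd2, Wnt3a and Wnt11 were the other 3, at log2 changes of 0.38, 0.40 and 0.42. Of the other named loci, Wnt7a had 6, 5 and 3 regions in SmoM2-Sox9cKO and 4, 3 and 4 in SmoM2, and Fzd1 had 7, 8 and 5 in SmoM2-Sox9cKO and 8, 7 and 8 in SmoM2; both sets overlap. The median log2 change was 0.07 over the 36 loci and 0.06 over all loci.

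Against WT, SmoM2-Sox9cKO cells showed 1 called locus of 36 (2.78%), Fzd8, against 7.41% of all loci (3.99% higher and 3.42% lower). Fzd8 (gene ID 14370), a receptor of beta-catenin signals, had 1, 1 and 1 regions in SmoM2-Sox9cKO, against 2, 3 and 2 in WT; the groups did not overlap (5.21% of all loci in that direction). The log2 change was -0.96 (SE 0.21, limma adjusted p 0.0270). At an unadjusted p under 0.05 there were 4 of 36, against 21.4% of all loci. The region overlapping an end of the gene was occupied in all 11 libraries, although no Embryo interval covered the end base itself. The loss rests mainly on a region 71.8 kb away, open in 0 of 3 SmoM2-Sox9cKO and 3 of 3 WT libraries. A 20 kb locus thus gave a log2 change of -0.06 (limma adjusted p 0.714). The adjusted p was 0.0579 to 0.0792 without WT 1, WT 2 or any 1 SmoM2-Sox9cKO library. Without WT 3 or SmoM2-Sox9cKO 3, 1 locus was called higher. Fzd3 had 4, 5 and 4 regions in SmoM2-Sox9cKO and 2, 3 and 3 in WT (0.56, SE 0.15, limma adjusted p 0.0568), without overlap, as for 8.11% of all loci in that direction. Fzd1 had 7, 8 and 5 in SmoM2-Sox9cKO and 3, 4 and 5 in WT (0.61, SE 0.17, limma adjusted p 0.0662), and Fzd4 3, 3 and 2 against 3, 4 and 4 (-0.47, SE 0.14, limma adjusted p 0.0837).

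Single regions switched in both directions, and within 1 locus and 1 comparison at Sfrp1, Wnt5b and Dkk3. Between SmoM2 and WT, 15 member regions at 11 genes were gained (open in 3 of 3 SmoM2 and 0 of 3 WT libraries; 5.08%, against 6.34% of all regions) and 5 were lost (1.69%, against 3.03%). The gained regions lay at Fzd1 (2), Fzd4 (2), Wnt7b (2), Sfrp1 (2), Fzd3, Fzd7, Wnt5a, Wnt5b, Wnt9b, Sfrp2 and Dkk3, and the lost ones at Sfrp1 (3), Fzd2 and Wnt7a. Fzd genes held 6 of the gained regions among 68 regions (8.82%) and Wnt genes 5 among 166 (3.01%). Between SmoM2-Sox9cKO and SmoM2, 4 regions were gained (1.36%, against 0.681% of all) at Wnt5b, Wnt7a, Sfrp1 and Dkk3, and 4 lost (1.36%, against 1.19%) at Fzd4, Fzd7, Wnt5b and Dkk3. Between SmoM2-Sox9cKO and WT, 10 were gained (3.39%, against 4.04%) and 5 lost (1.69%, against 2.58%). With 1 library left out, fewer libraries have to be open or closed, and several of these counts were higher. In SmoM2 against WT, 14 were lost without SmoM2 3, 13 without WT 1 and 8 without WT 3. In SmoM2-Sox9cKO against SmoM2, 15 were gained without SmoM2 3, 9 without SmoM2-Sox9cKO 2 and 7 without SmoM2 1, and 9 were lost without SmoM2 2 and 7 without SmoM2-Sox9cKO 1. In SmoM2-Sox9cKO against WT, 16 were gained without SmoM2-Sox9cKO 3, and 11 were lost without SmoM2-Sox9cKO 1 and 9 without WT 1 or WT 3.

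Of the 15 regions gained in SmoM2, 6 were open in all 3 SmoM2-Sox9cKO libraries, 5 in 2, 1 in 1 and 3 in 0; among all regions gained in SmoM2 these shares were 45.7%, 25%, 16.7% and 12.5%. The 3 absent from SmoM2-Sox9cKO lay 39.2 kb downstream of Fzd4, 2.76 kb downstream of Fzd7 and inside Dkk3. All 3 were weak in SmoM2, with the authors' folds at 2.59 to 3.32, 2.20 to 2.57 and 3.03 to 3.81. Their median ranks by p-value were 66017, 76413 and 70581, in SmoM2 lists of 76827 to 87910 intervals. Whether they closed in SmoM2-Sox9cKO or only fell below the caller's threshold was not tested. Of the 5 regions lost in SmoM2, 3 (at Wnt7a, Fzd2 and Sfrp1) were open in 2 of 3 SmoM2-Sox9cKO libraries and 2 (both at Sfrp1) in 0; among all lost regions 13.3% were open in 2, 55.6% in 0, 23% in 1 and 8.18% in 3.

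In all, 30 regions at 16 genes switched between at least 2 adult groups: 11 at Wnt, 10 at Fzd, 7 at Sfrp and 2 at Dkk genes. They are 10.2% of the 295 member regions, against 11.9% of all regions assigned to a gene. None of the 30 overlapped an end of a gene body, as did 1.88% of all switching regions; 25 of the 295 member regions overlapped one, against 10.6% of all regions. Of the 30, 10 lay inside gene bodies and 20 outside, up to 84.5 kb away. An Embryo library was open at 1 of the 30, the one 17.2 kb from Fzd2, and at 4.72% of all switching regions.

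The regions with the best median rank in the lists that hold them are described with their fold enrichments, which are the authors' own values. At Fzd1, chr5:4697244-4698049, 56.2 kb downstream, had folds of 9.24, 11.79 and 8.04 in SmoM2-Sox9cKO and 11.75, 6.95 and 9.99 in SmoM2, with no interval in WT. At Fzd3, chr14:65245282-65246253, inside the gene, had folds of 4.98, 11.79 and 4.17 in SmoM2-Sox9cKO and 8.32, 9.11 and 10.42 in SmoM2, with no interval in WT. Both were thus open in every library with the transgene and the high EpCAM gate, and in none of WT, sorted for low EpCAM.

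Wnt7b held chr15:85558970-85561323 inside the gene, with folds of 3.89 to 4.55 in SmoM2-Sox9cKO and 3.79 to 4.05 in SmoM2. Wnt5b, a ligand mostly linked to beta-catenin-independent signals, held chr6:119504634-119505983 inside the gene (3.66 to 7.19 and 4.62 to 5.21). Sfrp2 held chr3:83781380-83782389, 7.57 kb downstream (3.87 to 8.6 and 4.68 to 6.94), and Sfrp1 chr8:23533754-23534577, 84.5 kb away (4.05 to 6.15 and 3.62 to 5.84). These 4 were also without an interval in WT. Wnt5a, the related ligand, held chr14:28525529-28526069 inside the gene, open in 2 of 3 SmoM2-Sox9cKO, 3 of 3 SmoM2 and 0 of 3 WT libraries.

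Other regions were open in WT. At Fzd7, chr1:59435380-59436704, 46.1 kb upstream, was open in 0 of 3 SmoM2-Sox9cKO, 2 of 3 SmoM2 (folds 3.19 and 3.45) and 3 of 3 WT libraries (7.70, 7.77 and 6.52). At Fzd8 the region 71.8 kb away was open in 0 of 3 SmoM2-Sox9cKO, 1 of 3 SmoM2 and 3 of 3 WT libraries. At Fzd2, chr11:102624919-102625564, and at Wnt7a, chr6:91332745-91333272, the region was open in 2 of 3 SmoM2-Sox9cKO, 0 of 3 SmoM2 and 3 of 3 WT libraries. At Dkk3, chr7:112164485-112165549, 5.54 kb from the gene, was open in 3 of 3 SmoM2-Sox9cKO, 0 of 3 SmoM2 and 2 of 3 WT libraries.

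**Figure D4:**
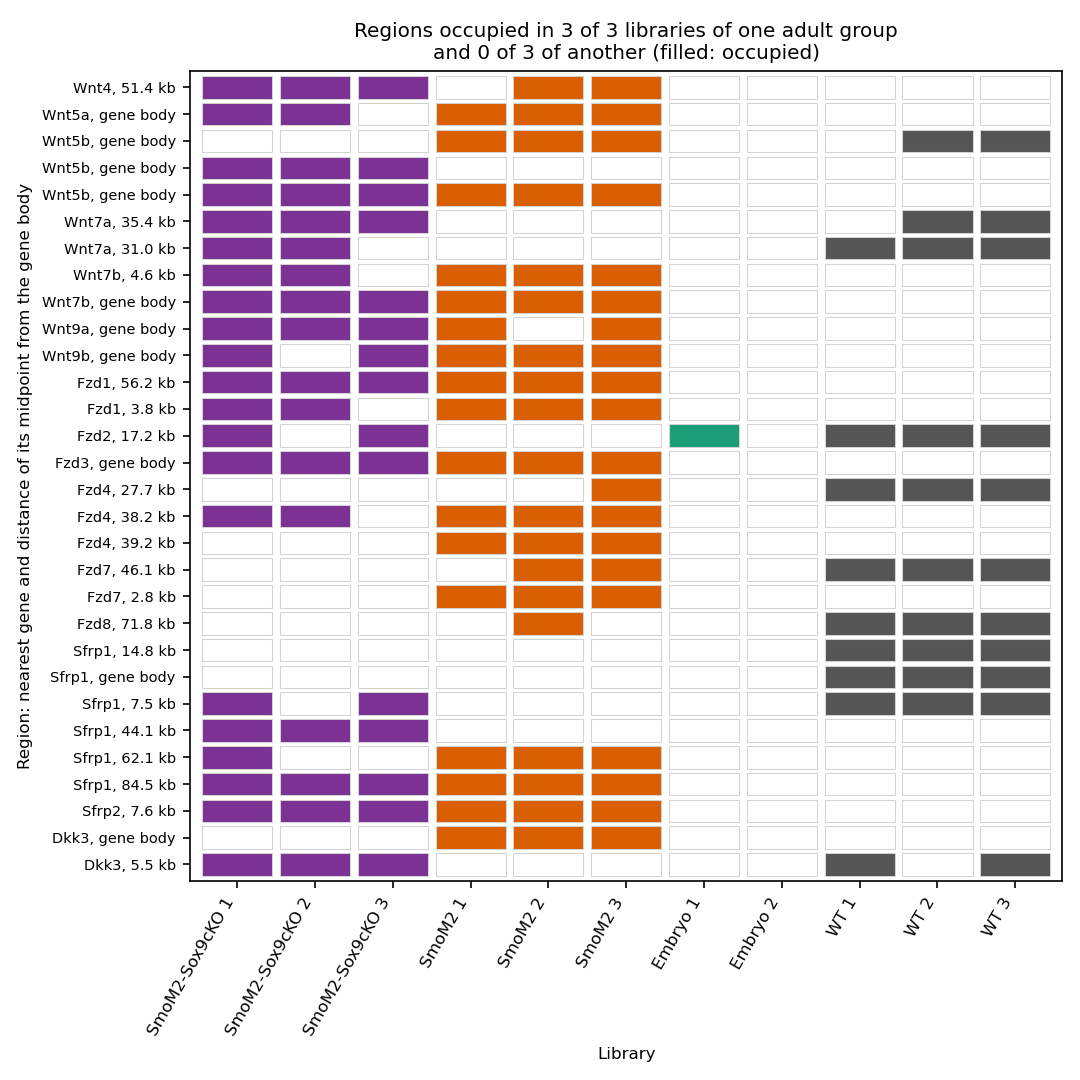
The 30 regions open in 3 of 3 libraries of one adult group and 0 of 3 of another (rows, with nearest gene and distance from its body) in each of the 11 libraries (columns); filled cells are occupied. The first 3 Sfrp1 rows are filled in all WT and no SmoM2 libraries and its last 2 the other way round, and 1 row (Fzd2) is filled in an Embryo library.

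Embryo cells were set against WT cells without a test, because the Embryo lists are much shorter. Of the 295 regions, 16 (5.42%) were open in both Embryo libraries, against 10.5% of all regions, and 8 of the 16 lay at Fzd genes. A single region, chr19:44514893-44515411, 0.879 kb downstream of Wnt8b, was open in both Embryo and 0 of 3 WT libraries (0.339%, against 0.631% of all regions); it was open in no adult library. The count was 2 without Embryo 1, 7 without Embryo 2 and 4 with all lists cut to the shortest. In the other direction 116 regions (39.3%, against 32.4%) were open in all WT and no Embryo libraries, at 32 genes. The 2 Embryo libraries held regions at 25 and 18 of the 38 loci, and no region of either library lay at Wnt1, Wnt2, Wnt3a, Wnt5a, Wnt7a, Wnt8a, Wnt9a, Wnt10b, Frzb, Sfrp4, Sfrp5, Dkk1 or Dkk4. By family the Embryo libraries held 20 and 9 Wnt, 15 and 9 Fzd, 6 and 4 Sfrp and Frzb, and 3 and 0 Dkk regions. With lists cut to the shortest, all member regions numbered 21 and 22 in Embryo and 24, 24 and 21 in WT.

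The other genes of the pathway were taken from a list of 57 receptors, modulators and signal carriers, of which 56 were tested. Against WT, 9 rose and 5 fell in SmoM2 (25%, beside 11% of all loci), with a median log2 change of -0.0022; 5 rose without WT 3 or with a 20 kb locus, 3 rose with Y-linked intervals as a covariate, and 9 fell with covered base pairs. The 6 with the largest changes were Wif1, Trabd2b, Lgr5, Prickle2, Ror1 and Rspo1. Wif1, which binds Wnt ligands outside the cell, averaged 11.7 ± 1.15 regions in SmoM2 and 1 ± 0 in WT (SD, n = 3 each; log2 change 2.89). Trabd2b, a protease that cuts Wnt ligands, averaged 5.33 ± 2.52 in SmoM2 and 19.7 ± 2.52 in WT (log2 change -2.00). Lgr5, a receptor for R-spondins, had a log2 change of 1.39, Prickle2, a planar polarity protein, -1.33, Ror1, a Wnt5a receptor, -1.18 and Rspo1, an R-spondin ligand, -1.18. Between SmoM2-Sox9cKO and SmoM2, 2 of 56 rose (3.57%, beside 0.853%): Trabd2b, 14.7 ± 3.21 in SmoM2-Sox9cKO and 5.33 ± 2.52 in SmoM2, and the feedback inhibitor Nkd1, 4 ± 0 and 2 ± 0 (SD, n = 3 each). That count was 0 without SmoM2 1 or SmoM2-Sox9cKO 3 and 1 without SmoM2 2, SmoM2-Sox9cKO 1 or any 1 WT library; it was 0 with the Y covariate and 1 at a −log10 q of at least 5, with 50% of a region covered, a 20 kb locus, no scaling, only the 6 libraries compared or a replicate block. None fell, but 1 did with 50% covered, covered base pairs, only the 6 libraries compared or without WT 1. Between SmoM2-Sox9cKO and WT, 5 rose and 3 fell (14.3%, beside 7.41%); 1 fell without WT 3, SmoM2-Sox9cKO 2 or SmoM2-Sox9cKO 3 or with no scaling, 7 fell with covered base pairs, and 3 rose with 50% covered.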

How the data were processed

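Sorted cells were digested, and nuclei were treated with transposase and sequenced, per the labels' protocols. Trimmomatic, Bowtie2, Picard, MACS2 and deepTools are named with GRCm38/mm10 in the submitters' processing notes; their versions and settings are not stated there. Each of 11 lists holds intervals in 10 columns. The score (column 5), the fold enrichment (column 7), −log10 of the p-value (column 8) and of the q-value (column 9) and the summit position (column 10) were deposited by the authors as MACS2 made them, per the submitters' processing notes. Read depth is unknown; the number of intervals limits the precision.

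From these lists intervals on chromosomes 1 to 19 and X were merged into 124941 regions (median 693 bp), occupied where an interval overlapped by at least 1 bp. Regions went to the nearest of 21631 RefSeq gene bodies (GRCm38.p6) within 100 kb (89.6% had one; a midpoint inside several bodies went to the shortest). limma 3.58.1 (R 4.3.3, trend on, robust off) was fitted to log2((occupied regions + 0.5) / (library total + 1) × 100000) at 15364 loci with a mean of at least 1 region over 9 adult libraries, with adjustment per comparison and a threshold of 0.05. The fit was tested on simulated data, with larger changes and at fuller loci than most members called here. It therefore does not vouch for those calls. Log2 changes understate those of loci with few regions. Named are loci called in any adult comparison, the 3 largest changes of each family in SmoM2 against WT, the fullest and sparsest loci, up to 12 switching regions by rank and up to 6 other pathway genes; Wnt3a, Wnt11, Fzd3, Fzd4 and Fzd5 and the windows were singled out after their values were seen. Members and lists were chosen with earlier results of these data known. Alternatives are given at the end.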

Additional observations from a re-analysis of the deposited data

How the results depend on the processing

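The calls at single loci depend on the processing. In SmoM2 against WT the 1 higher and 4 lower members became 0 and 2 with intervals of a −log10 q of at least 5, 0 and 1 with 50% of a region covered, and 0 and 0 both without scaling and with Y-linked intervals as a covariate; 2 were higher with a pseudocount of 1 and with only the 6 libraries compared, 4 with covered base pairs, and 2 were lower with lists of equal length and with a filter at a mean of 3 regions. Leaving out each library gave 0 to 2 higher and 0 to 4 lower, fewer samples being part of that. The median log2 change was -0.030 without scaling. In SmoM2-Sox9cKO against SmoM2, 2 were higher with lists of equal length, and 0 to 2 with each library left out. In SmoM2-Sox9cKO against WT, 1 was higher at −log10 q of at least 5 and in a 20 kb locus, 2 with equal lists and with the filter at 3, 3 with covered base pairs; 0 were lower with a 20 kb locus, the filter at 3, covered base pairs, no scaling and the Y covariate, and 0 to 1 higher and 0 to 1 lower with each library left out. The Dkk4 locus fell below the filter, and was not tested, at −log10 q of at least 5, with equal lists, with 50% covered, with the filter at 3 and without WT 1 or WT 2. Sfrp5 in SmoM2 against WT turned to 0.52 with the Y covariate. Where no construction explains it, the cause was not tested.

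Same-numbered replicates did not visibly deviate together (correlations -0.07 to 0.08, beside -0.12 to 0.12 for differently numbered ones). With 3 libraries a group this cannot exclude that the numbers pair libraries. With a replicate block 1 member was higher and 3 lower in SmoM2 against WT (Fzd2 lost, limma adjusted p 0.0712). The counts were 0 and 0 in SmoM2-Sox9cKO against SmoM2, and 0 and 1 in SmoM2-Sox9cKO against WT.

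Member regions in SmoM2 against WT numbered 29 gained and 29 lost when 2 of 3 libraries sufficed, 10 lost with lists of equal length and 9 with 50% covered, and 15 to 22 gained and 6 to 14 lost with a library left out. In SmoM2-Sox9cKO against SmoM2 they numbered 27 gained and 15 lost by 2 of 3, 2 gained in a 20 kb locus, 0 lost at −log10 q of at least 5 and with equal lists, 2 lost with 50% covered, and 4 to 15 gained and 4 to 9 lost with a library left out. In SmoM2-Sox9cKO against WT they numbered 26 gained and 23 lost by 2 of 3, 5 gained with 50% covered, 6 gained and 2 lost in a 20 kb locus, 3 lost at −log10 q of at least 5, and 10 to 16 gained and 6 to 11 lost with a library left out. The Embryo count, under alternatives chosen after seeing the data like the tie rule, was 4 with all lists cut to the shortest, 0 at −log10 q of at least 5 and 1 to 7 with a library left out. Lists of called intervals hold no reads, so weaker opening below the caller's threshold was not detectable.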
